A study of Mus musculus with 12 samples.

Results

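Expression was compared between 2 lines of mouse embryonic fibroblasts that carried a floxed Crebbp allele and 4 lines that carried a floxed Ep300 allele. All 12 arrays of the study entered the comparison, as 4 arrays of the Crebbp lines and 8 arrays of the Ep300 lines, chosen by the line names. The floxed Crebbp lines were flox1 (CBP +/flox) and triCH1flox1 (CBP CH1/flox and p300 CH1/CH1). The floxed Ep300 lines were flox2_1 and flox2_2 (p300 +/flox) and triCH1flox2_1 and triCH1flox2_2 (CBP CH1/CH1 and p300 CH1/flox). CH1 stands for an allele whose protein lacks the CH1 domain, and flox for an allele that Cre recombinase can delete. All 6 lines were primary fibroblasts of e14.5 embryos that received a Cre adenovirus at passage 3 and were then expanded at least 100-fold. Subconfluent cells were held for 6 h at 21% O2 (normoxia) or 0.1% O2 (hypoxia), with 5% CO2 at 37 °C, and each line gave 1 Affymetrix Mouse430_2 array in each condition. The control lines therefore compare 1 Crebbp line with 2 Ep300 lines, and so do the triCH1 lines. The labels do not say whether every line came from an embryo of its own, so p-values measure the spread between these lines only.

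Crebbp and Ep300 encode CBP and p300, closely related transcriptional coactivators that acetylate histones and other proteins and that are recruited by many transcription factors, among them CREB, HIF, p53, NF-kB and E2F. Mice and people are sensitive to the dose of either gene, and the other only partly covers the loss of either. Their CH1 domain is a zinc-binding fold on which HIF-1α and the CITED proteins dock. Comparing the floxed alleles asks whether fibroblasts with a deleted Crebbp allele differ from those with a deleted Ep300 allele, with and without the CH1 deletion.

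Values are signals on a linear scale, scaled by the authors to a target of 500 on each array. A line is the unit: its signal is the mean of its 2 arrays, and tests used the mean of log2(signal + 20). Differences are given as floxed Crebbp minus floxed Ep300 on that log2 scale, adjusted for triCH1 status, with the standard error of the fit. The arrays were alike in quality, with scale factors from 2.57 to 4.28, median signals from 57.2 to 76.1 and 3′ to 5′ signal ratios of Gapdh from 0.737 to 0.812. Pearson's r of line values lay between 0.949 and 0.980. Of the fibroblast markers, line signals were 25150 to 35170 for Col1a2 and 39860 to 50080 for Vim, while Dcn was at 59.2 to 738 and Fap at 73.9 to 244. Endothelial Pecam1 did not exceed 21.7, leukocyte Ptprc 35.3, and myogenic Myog 33.8 in any line, while Krt19, which is listed here as an epithelial marker, lay between 2281 and 4505. A mean signal of at least 100 was reached by 1 of 8 endothelial, 5 of 12 skeletal muscle and 4 of 10 macrophage markers. So did 7 of 10 neural, 4 of 10 epithelial, 4 of 12 cartilage and bone, 2 of 7 fat cell and 1 of 6 blood markers. The 1 endothelial marker was at 801 and 199 in flox1 and triCH1flox1. In flox2_1, flox2_2, triCH1flox2_1 and triCH1flox2_2 it was at 608, 216, 73.2 and 123. It was higher in the Crebbp lines (1.03) at an unadjusted p under 0.05 (limma) and was not called. Y-linked Eif2s3y was high in 1 of 2 Crebbp lines and 2 of 4 Ep300 lines, with signals of 1019 to 1378 against 3.95 to 18.4 in the others. The sex of the cells was thus balanced between the 2 groups as wholes. The control lines and the triCH1 lines each hold 1 Crebbp line, and these 2 differed in sex. The balance therefore need not hold among the control or the triCH1 lines alone, or for a difference between those.

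Signals of the targeted genes followed the labels in direction. The brightest Crebbp probe set had signals of 755 in flox1 and 791 in triCH1flox1. In the Ep300 lines it was at 1735 in flox2_1, 1045 in flox2_2, 1804 in triCH1flox2_1 and 1100 in triCH1flox2_2. All 4 Crebbp-line arrays were below all 8 Ep300-line arrays, and lines numbered 1 were higher than lines numbered 2. The difference was −0.82 ± 0.25 (adjusted p = 0.149, limma). The other tested Crebbp probe sets differed by −0.95 ± 0.25 (adjusted p = 0.126) and −0.52 ± 0.27 (adjusted p = 0.321), and the remaining probe set was left out at a mean signal of 28.2. Ep300 ran the other way, with 499 and 655 in the Crebbp lines against 424, 237, 397 and 292 in the Ep300 lines. That difference was 0.76 ± 0.24 (adjusted p = 0.158), and the lines did not overlap although single arrays did. In the exact permutation test over the 9 assignments within control and triCH1 lines, each tested probe set of either gene gave a two-sided p of 0.222, where the smallest possible p is 0.111. Where these probe sets lie relative to the deleted exons was not analysed here, so a signal from transcripts of the deleted allele cannot be told apart from the intact ones.

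**Figure D1:**
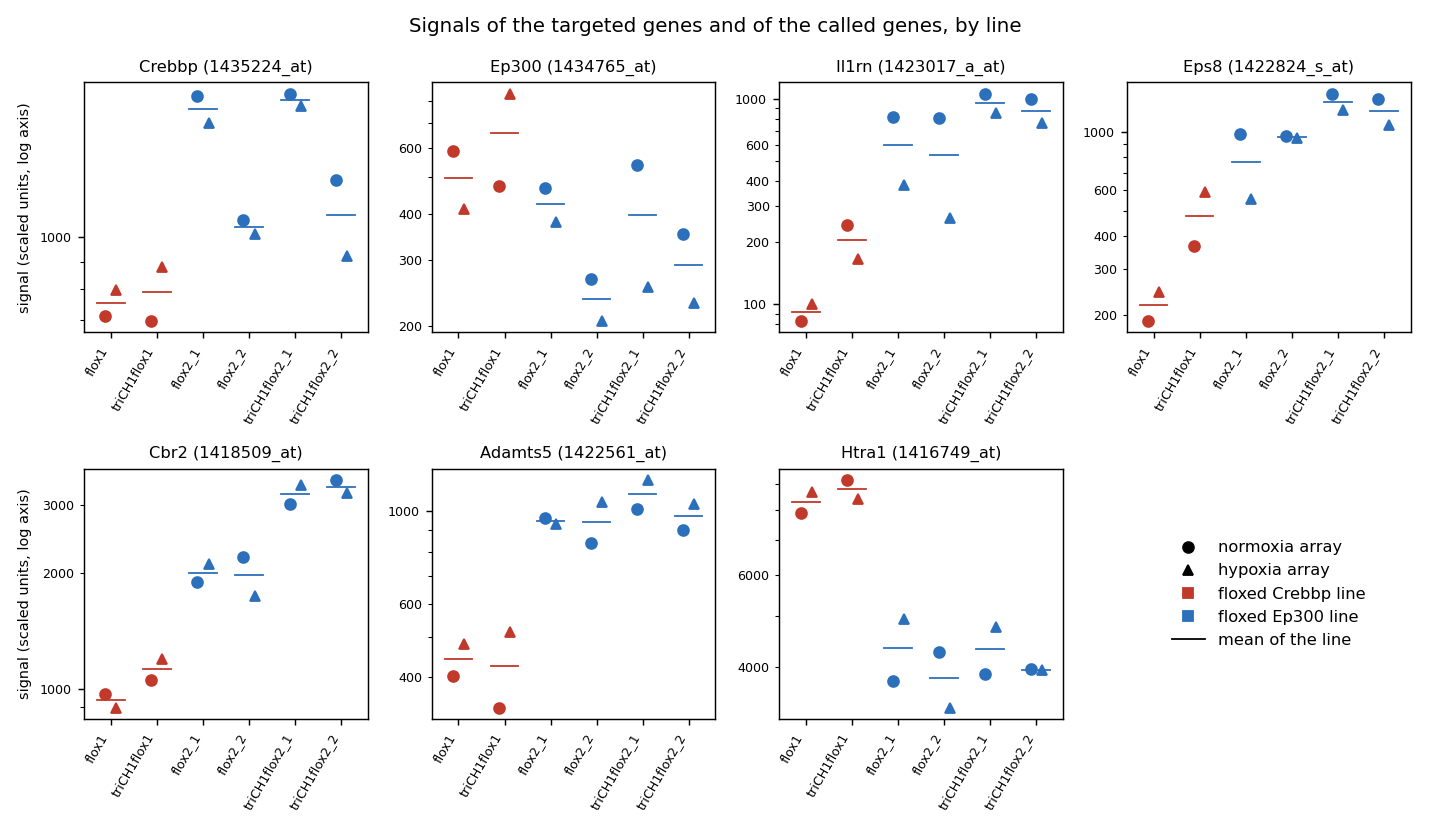
Signals in scaled units (log axis) of Crebbp, Ep300 and the 5 called genes in each line, with circles for normoxia arrays, triangles for hypoxia arrays, bars for the mean of the line, red for floxed Crebbp lines and blue for floxed Ep300 lines. Crebbp is lower in the Crebbp lines (755 and 791), Ep300 is higher there, and Htra1 at 8287 and 8771 stands above all Ep300 lines, of which the highest is 4350.

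Few genes passed the test between the floxed genes. Of 18903 probe sets, 8 (0.0423%) were called at an adjusted p under 0.05 (limma, Benjamini-Hochberg), 2 of them higher (0.0106%) and 6 lower (0.0317%) in the Crebbp lines. Il1rn, the secreted antagonist of the interleukin-1 receptor, was lower. Its signals were 91.8 and 205 in flox1 and triCH1flox1. In flox2_1, flox2_2, triCH1flox2_1 and triCH1flox2_2 they were 597, 533, 958 and 878. Every Crebbp-line array (83.0 to 244) was below every Ep300-line array (262 to 1061), and the difference was −2.16 ± 0.15 (adjusted p = 0.00716), or 4.46-fold. A second Il1rn probe set was called as well, and all 3 had the same sign. Htra1, a secreted serine protease that cleaves matrix proteins, was the only named gene that rose. It had signals of 8287 and 8771 in the Crebbp lines against 4350, 3805, 4326 and 3950, a difference of 1.06 ± 0.10 (adjusted p = 0.0306), and both of its probe sets were called. The groups did not overlap on any array, and the lines of each group lay close together.

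Cbr2, a carbonyl reductase, fell by 1.30 ± 0.13 on the log2 scale (adjusted p = 0.0306). It was at 934 and 1126 in the Crebbp lines and at 2005, 1974, 3209 and 3353 in the Ep300 lines, of which the triCH1 lines were the higher. Eps8, an actin-capping adaptor of receptor tyrosine kinase signalling, fell by 1.63 ± 0.17 (adjusted p = 0.0306). It was at 217 and 479 in the Crebbp lines and at 770.2, 960, 1307 and 1199 in the Ep300 lines, and here single arrays overlapped (591 at most against 553 at least). Adamts5, an aggrecan-cleaving metalloprotease, fell by 1.17 ± 0.13 (adjusted p = 0.0410), with 441 and 425 against 948, 945, 1098 and 973. All 3 probe sets of Adamts5 and of Eps8 had the same sign. The remaining call is a probe set with no single gene symbol in the array's annotation. It was at 1067 and 992 against 2720, 3911, 3242 and 4000 (−1.72 ± 0.17, adjusted p = 0.0306).

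The count rested on the 2 Crebbp lines: without flox1 there were 0 calls, and without triCH1flox1 there were 2, neither of them among the 8. It also moved with the Ep300 lines, to 2 without triCH1flox2_2, 13 without triCH1flox2_1, 23 without flox2_2 and 8 without flox2_1, of which 5 were calls of the full set. Il1rn differed by −2.24 to −2.07 over the 6 omissions of a line, and its adjusted p was 0.0713 without flox1 and 0.0981 without triCH1flox1. Htra1 differed by 1.02 to 1.10, with an adjusted p of 0.0878 without flox1, 0.294 without triCH1flox1 and 0.116 without triCH1flox2_2. Without flox1, triCH1flox1, flox2_1 and triCH1flox2_2, in that order, Cbr2 had adjusted p-values of 0.0713, 0.249, 0.0634 and 0.116, and Eps8 of 0.0878, 0.180, 0.0634 and 0.114. For Adamts5 they were 0.0878, 0.399, 0.111 and 0.136, and 0.0540 without flox2_2. Among single arrays, leaving out normoxia of flox2_2 gave 0 calls, normoxia of flox2_1 or triCH1flox2_1 gave 2, and hypoxia of flox1 gave 25. With quantile normalization 0 probe sets were called higher and 2 lower.

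At an unadjusted p under 0.05 there were 3843 probe sets (20.3%), 1468 higher (7.77%) and 2375 lower (12.6%), and 945 is the number that a uniform spread of p-values would give. That count was 1205 without triCH1flox1 and 2216 without the hypoxia array of flox2_2. Line values of the 2 and the 4 lines did not overlap in 5192 probe sets (27.5%), higher in 11.9% and lower in 15.6%. All 4 arrays lay apart from all 8 in 558 (2.95%), higher in 1.76% and lower in 1.19%. Since only 1 named gene was called higher and 4 lower, the 8 genes with the smallest p in each direction are described, and those other than the called genes did not pass. Among those higher in the Crebbp lines, Marcksl1, which binds actin and calmodulin, was at 8265 and 5266 against 3090, 3643, 2110 and 2872 (1.19 ± 0.15, adjusted p = 0.0536). Ncam1, the neural cell adhesion molecule, was at 721 and 590 against 295, 334, 165 and 215 (1.35 ± 0.18, adjusted p = 0.0536), and all 4 of its probe sets had the same sign. Itga5, the α subunit of the fibronectin receptor, was at 10260 and 9190 against 6910, 6184, 4749 and 4813. In each of these genes no Ep300-line array reached a Crebbp-line array. Slc66a2, Tcn2 (which carries vitamin B12) and Glipr1 differed by 1.00 ± 0.14, 0.84 ± 0.12 and 0.79 ± 0.12, with adjusted p-values of 0.0580, 0.0726 and 0.0726. A further Glipr1 probe set had the opposite sign.

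Creb3, a membrane-bound transcription factor of the CREB family, gave unlike readings. The probe set with its smallest p was at 7581 and 5965 against 4725, 4717, 3261 and 3560 (0.74 ± 0.10, adjusted p = 0.0536). Another was at 2189 and 3488 against 4105, 4069, 2688 and 2724, which is lower in the Crebbp line among the control lines (−0.90) and higher among the triCH1 lines (0.36). A direction for Creb3 therefore depends on the probe set.

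Among genes lower in the Crebbp lines that did not pass, Rspo3, a secreted enhancer of Wnt signalling, was at 55.3 and 111 against 217, 184, 365 and 318 (−1.58 ± 0.19). Lmo7, a junction and actin-binding protein, was at 216 and 157 against 604, 494, 720.0 and 774 (−1.69 ± 0.21). Rgs17, which shortens G protein signalling, was near the bottom of the scale at 43.1 and 28.2 against 247, 195, 139.9 and 222 (−1.97 ± 0.25). Dkc1, the pseudouridine synthase of ribosomal and telomerase RNA, was at 698 and 944 against 1449, 1257, 2536 and 2047 (−1.10 ± 0.14). Each had an adjusted p of 0.0536, and in each the arrays of the groups lay apart.

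The control lines and the triCH1 lines give separate readings of the same contrast, since no line is in both. Over the 18903 probe sets, the difference among the control lines and that among the triCH1 lines had a Pearson r of 0.39 and a Spearman rho of 0.45, and the same sign in 68.4% of probe sets. These points are probe sets of the same 12 arrays and not independent replicates. The difference between lines numbered 1 and 2, which sets 1 line against 1, had an r of 0.18 between the control and the triCH1 Ep300 lines. An Ep300 line can also be set against the other 2 control or triCH1 lines, as was done for the Crebbp line. So measured, r was 0.27 for lines numbered 1 and 0.21 for lines numbered 2. For lines of unlike number it was 0.05 and −0.03. Differences were spread more widely among the triCH1 lines (SD 0.473 over probe sets) than among the control lines (SD 0.361). Il1rn differed by −2.24 in the control and −2.07 in the triCH1 lines, and Htra1 by 1.03 and 1.08. Both genes were chosen by their p-value in these same lines, so their like values in the control and triCH1 lines are no separate evidence.

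**Figure D2:**
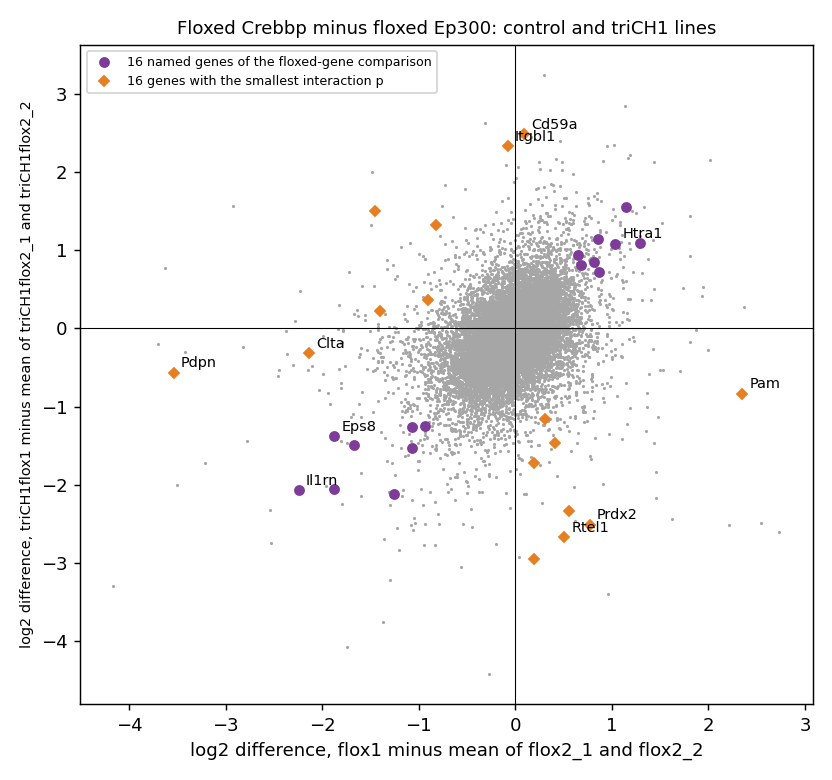
Each grey point is 1 of 18903 probe sets, with the log2 difference floxed Crebbp minus floxed Ep300 among the control lines on the x axis and among the triCH1 lines on the y axis. Genes named for the difference between the floxed genes are purple, as Il1rn at −2.24 and −2.07 and Lmo7 at −1.26 and −2.11. Genes with the smallest interaction p are orange, as Pdpn at −3.54 and −0.57. Each set was chosen by p-values from these same values, so its place relative to the diagonal follows from that choice.

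Genes of DNA replication were lower in the Crebbp lines. Lists are read by the brightest probe set of each gene, and over all 10059 genes so read 22% had an unadjusted p under 0.05, 9.31% higher and 12.7% lower. All 18 measured members of the list had a negative difference, 12 of them (66.7%) at an unadjusted p under 0.05. Their median was −0.47 against −0.01 over all 10059 genes. None was called. Mcm6, a subunit of the replicative helicase, was at 1593 and 2250 against 2465, 3045, 3952 and 3235 (−0.72 ± 0.13, adjusted p = 0.0851). Cdc6, which loads that helicase onto origins, was at 262 and 468 against 393, 476, 1163 and 1197 (−0.98 ± 0.18, adjusted p = 0.0851). Prim1, the catalytic primase subunit, was at 706 and 863 against 956, 985, 1818 and 1829 (−0.75 ± 0.15), and Pola1, the DNA polymerase α subunit, at 147 and 206 against 209, 245, 405 and 441 (−0.78 ± 0.18). The difference was smaller among the control lines (median −0.20, 15 of 18 negative) than among the triCH1 lines (median −0.74, 18 of 18 negative). Both triCH1flox2 lines stood above the other 4 lines in all 18 genes, whereas flox2_1 and flox2_2 overlapped with the Crebbp lines in 14.

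Mitotic genes followed the same line order, with both triCH1flox2 lines above the other 4 in 17 of 19. Of these 19, 9 were lower (47.4%, against 12.7% of all genes) at an unadjusted p under 0.05 and none higher. The median was −0.32 over all lines, −0.22 among the control lines and −0.45 among the triCH1 lines. Kif11, the motor that separates spindle poles, was at 241 and 286 against 352, 344, 676 and 708 (−0.85 ± 0.20). Ccna2, the S and G2 phase cyclin, was at 1744 and 1951 against 2123, 2202, 4155 and 3973 (−0.69 ± 0.17). Top2a was at 1746 and 1797 against 2015, 2214, 4049 and 4166, and Mki67 at 1108 and 1112 against 1531, 1183, 2536 and 2674. Aurka and Cenpa did not follow, with differences of 0.04 ± 0.17 and 0.04 ± 0.13. In cultures a smaller share of dividing cells and less RNA per cell cannot be told apart.

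**Figure D3:**
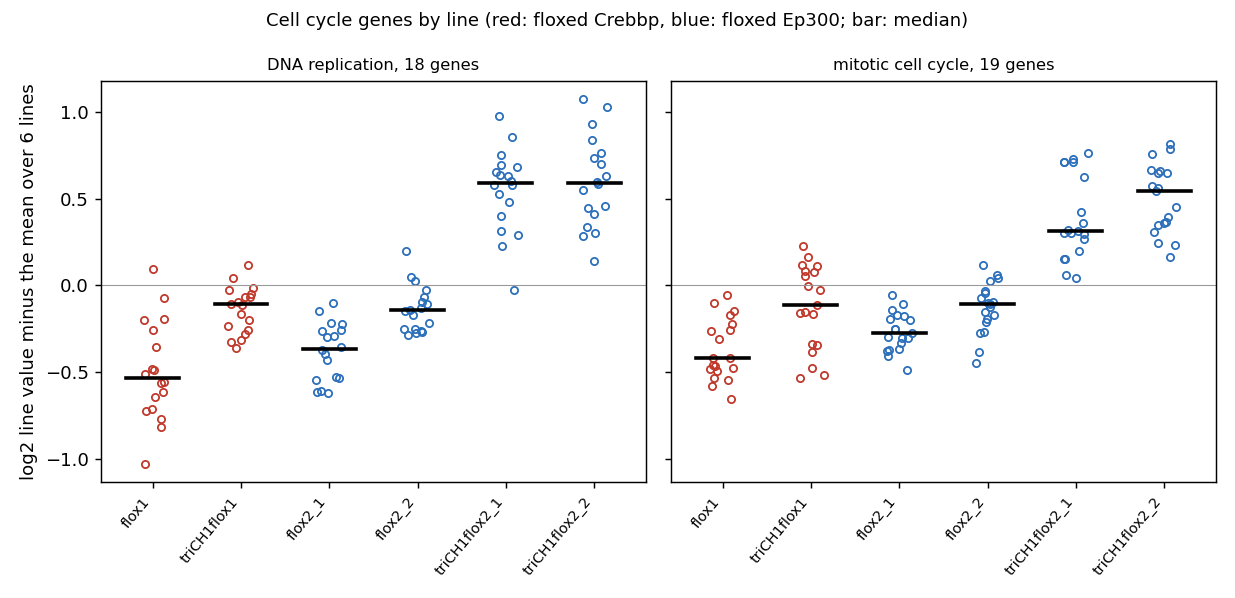
Each point is 1 gene of the DNA replication list (18 genes) or the mitotic list (19 genes), as its log2 line value minus its mean over the 6 lines, with floxed Crebbp lines in red, floxed Ep300 lines in blue and the median as a bar. By the plotted medians both triCH1flox2 lines stand highest (0.59 each for replication genes) and flox1 lowest (−0.54, with flox2_1 at −0.37), and the control-line difference for replication genes (median −0.20) is smaller than the triCH1-line difference (median −0.74).

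The promoters of the replication genes are shown because E2F factors, which recruit CBP and p300, drive many of them at the start of S phase. The 250 bases before the RefSeq start were searched on both strands for the E2F letters TTTCCCGC and TTTGGCGC (reverse complements GCGGGAAA and GCGCCAAA). They were found in 5 of the 15 replication genes with a promoter in the table (33.3%), namely Mcm6, Cdc6, Pola1, Mcm5 and Mcm7. Of the 8223 tested genes with a promoter 3.10% held them, as did 1.51% of all 27025 genes in the table and 0 of 15 mitotic genes. The list was chosen as replication genes, many of them driven by E2F, so its share does not bear on the floxed genes. Whether E2F has a part in the difference between the lines was not tested. Below are Mcm6 (chr1:128359706-128359955, minus strand) and Cdc6 (chr11:98907901-98908150, plus strand) in GRCm38.p6, 5′ to 3′ from RefSeq, with the E2F letters in capitals.
Mcm6: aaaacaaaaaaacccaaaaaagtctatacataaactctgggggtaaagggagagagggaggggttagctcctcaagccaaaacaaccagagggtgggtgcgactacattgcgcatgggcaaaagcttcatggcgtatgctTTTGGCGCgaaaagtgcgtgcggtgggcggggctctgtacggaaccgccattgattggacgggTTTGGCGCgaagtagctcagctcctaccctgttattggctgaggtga
Cdc6: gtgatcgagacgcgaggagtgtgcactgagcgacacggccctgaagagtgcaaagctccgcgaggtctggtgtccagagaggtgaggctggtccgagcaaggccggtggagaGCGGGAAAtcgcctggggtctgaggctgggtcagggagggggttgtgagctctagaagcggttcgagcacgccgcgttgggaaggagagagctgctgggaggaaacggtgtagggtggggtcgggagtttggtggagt
The cAMP response element TGACGTCA, the full site of CREB, was in none of the 3 called genes with a promoter in the table (Htra1, Il1rn and Cbr2), against 3.15% of tested genes. Its 5-base core TGACG (reverse complement CGTCA), which is part of the full site, was in Htra1, as in 32.1% of tested genes, and is in capitals in the Htra1 promoter (chr7:130935953-130936202, plus strand, GRCm38.p6). Neither form was in the window of Crebbp or Ep300. A match describes letters and not binding.
Htra1: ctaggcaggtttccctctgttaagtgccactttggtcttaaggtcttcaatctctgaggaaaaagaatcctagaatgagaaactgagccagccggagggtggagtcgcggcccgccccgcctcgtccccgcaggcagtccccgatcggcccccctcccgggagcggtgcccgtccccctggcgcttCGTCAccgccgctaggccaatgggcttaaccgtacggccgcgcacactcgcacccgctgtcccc

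Inhibitors of the cell cycle went in both directions. Of 13 measured members of the senescence list, 3 were higher (23.1%) and 2 lower (15.4%) at an unadjusted p under 0.05. Over all genes these shares were 9.31% and 12.7%. Cdkn1a, the p21 inhibitor, was at 17620 and 12010 against 10670, 13690, 6959 and 7364 (0.65 ± 0.12, adjusted p = 0.0851). Cdkn2b was at 4510 and 2651 against 2083, 3234, 1257 and 1154 (0.96 ± 0.18), and Cdkn2a, which encodes p16 and p19ARF, at 1484 and 597 against 724, 861, 435 and 329.9 (0.76 ± 0.16). In these 3 genes the Crebbp line was the highest of its stratum, but triCH1flox1 lay below flox2_2. Cdkn1b, the p27 inhibitor, went the other way at 401 and 1091 against 777, 1404, 1455 and 1352 (−0.86 ± 0.26). Of 18 measured p53 targets, 4 were higher at an unadjusted p under 0.05 and none lower (22.2%, near the 22% of all genes), with a median of 0.14. Pmaip1, a BH3-only death gene, was at 4211 and 1525 against 2221, 2564, 386 and 558 (1.25 ± 0.21, adjusted p = 0.0851). Sesn2 was at 698 and 605 against 452, 503, 431 and 380.4 (0.56 ± 0.14), and its arrays lay apart. Mdm2 differed by 0.14 ± 0.14.

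**Figure D4:**
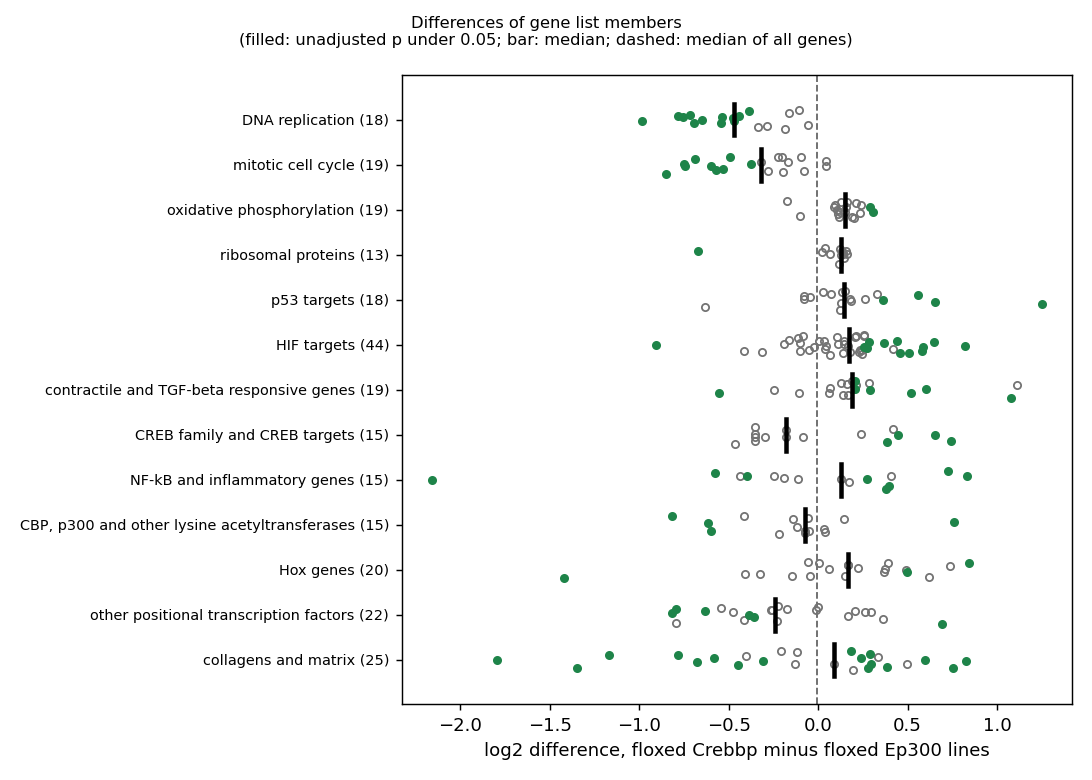
Each point is the log2 difference (floxed Crebbp minus floxed Ep300 lines) of 1 member of a gene list, filled at an unadjusted p under 0.05, with a bar at the list's median, the number of measured members in brackets and a dashed line at the median of all genes (−0.01). The replication and mitotic lists lie to the left with medians of −0.47 and −0.32, and Il1rn at −2.16 is the only member that was called.

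No gene around the coactivators was called. Of 15 measured lysine acetyltransferase genes, Ep300 was higher and Crebbp, Hat1 and Ncoa2 were lower at an unadjusted p under 0.05. Hat1, which acetylates new histone H4, was at 1109 and 1367 against 1325, 1543, 2403 and 2508 (−0.60 ± 0.14, adjusted p = 0.111), with the highest values in the triCH1flox2 lines as for the replication genes. Kat2a and Kat2b, which encode GCN5 and PCAF, differed by −0.14 ± 0.14 and −0.08 ± 0.14. Of 11 measured CITED and coactivator partner genes, Cited2 differed by 0.25 ± 0.10, Taf1 by −0.43 ± 0.16 and Crtc1 by −0.57 ± 0.22, each at an unadjusted p under 0.05. Of 15 measured CREB family members and targets, 4 were higher (Creb3, Cdkn1a, Dusp1 and Creb3l2) and none lower, while the list's median was −0.18. Creb3 counts here by its brightest probe set, although its direction depends on the probe set. At that threshold the acetyltransferase, CITED and CREB lists had shares of 26.7%, 27.3% and 26.7%, near the 22% of all genes. Fos and Nr4a1, rapid CREB targets, differed by −0.18 ± 0.13 and −0.18 ± 0.19.

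Il1rn stood out among inflammatory genes, which otherwise went in both directions. Of 15 measured NF-kB and inflammatory genes, 5 were higher (33.3%) and 3 lower (20%) at an unadjusted p under 0.05. Over all genes these shares were 9.31% and 12.7%. Tnfaip3, a brake on NF-kB, was at 1325 and 802 against 897, 787, 428 and 531 (0.73 ± 0.14, adjusted p = 0.0881). Lif was at 1046 and 1228 against 925, 500.2, 488 and 681 (0.83 ± 0.25). Cxcl12, a chemokine of stromal cells, was at 3752 and 2604 against 6003, 5179, 3905 and 3916 (−0.58 ± 0.10, adjusted p = 0.0851), and Vcam1 differed by −0.40 ± 0.17. Ccl2 and Saa3 differed by −0.19 ± 0.17 and −0.24 ± 0.26.

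Contractile and matrix genes were divided. Of 19 measured contractile and TGF-beta responsive genes, 6 were higher (31.6%) and 1 lower (5.26%) at an unadjusted p under 0.05. Over all genes these shares were 9.31% and 12.7%. The list's median was 0.19 (0.08 with quantile normalization). Cnn1, calponin of smooth muscle, was at 24780 and 18730 against 16490, 17700, 12550 and 14310 (0.52 ± 0.09, adjusted p = 0.0851), and Acta2 differed by 0.13 ± 0.10. Id2, an inhibitor of differentiation factors, was the lower member at 1383 and 1281 against 1755, 1726, 2136 and 2319 (−0.56 ± 0.14). Of 25 collagen and matrix genes, 9 were higher (36%) and 8 lower (32%), against the same shares of all genes. Eln, elastin, was at 111 and 74.1 against 205, 275, 316 and 239, apart on every array (−1.35 ± 0.25, adjusted p = 0.0851). Fn1, fibronectin, was at 31810 and 26210 against 25780, 23010, 23620 and 17550 (0.38 ± 0.13), and Col6a3 at 3166 and 3588 against 8072, 5432, 7050 and 4367 (−0.78 ± 0.26).

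Of 12 measured fibroblast markers, 3 were higher (25%) and 3 lower (25%) at an unadjusted p under 0.05, with 6 differences of each sign. Over all genes these shares were 9.31% and 12.7%. Their lowest member, Pdgfra, a receptor of platelet-derived growth factor, was at 48.2 and 81.2 against 135, 146, 583 and 315 (−1.70 ± 0.30, adjusted p = 0.0851). Of 15 measured Wnt and Notch genes, 3 were lower (Sfrp2, Ccn5 and Wnt10a) and none higher at that threshold (20%, near the 22% of all genes). Sfrp2, a secreted Wnt modulator, was at 27.3 and 32.7 against 138, 99.7, 1976 and 374 (−2.91 ± 0.68, adjusted p = 0.110), with the arrays apart. Lum, a proteoglycan and the lowest member of the matrix list, was at 149.8 and 299 against 245, 438, 3974 and 808 (−1.80 ± 0.59), and its control lines overlapped. Of the measured markers of other cell types, the neural list had 7 of 7 positive differences, with a median of 0.64. At an unadjusted p under 0.05 there were 2 (Ncam1 and Gap43), a share of 28.6%, near the 22% of all genes. Among the triCH1 lines alone 3 of the 7 were negative, and the median was 0.11 there against 0.55 among the control lines. Epithelial Krt18 was at 125 and 111 against 163, 134, 369 and 385, and fat cell gene Fabp4 at 862 and 618 against 1301, 1657, 1487 and 893, while Adipoq did not exceed 36.4. Whether a different mix of cells in the lines has a part in these differences was not tested.

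None of the genes that mark the site of origin of fibroblasts in the body was called. Of 20 measured Hox genes 2 were higher and 1 lower at an unadjusted p under 0.05 (15%, against 22% of all genes). Hoxd10 was at 342.5 and 395 against 199, 185, 189 and 219.9 (0.84 ± 0.17, adjusted p = 0.0911), and Hoxc10 at 37.2 and 97.0 against 122, 137, 184 and 304 (−1.42 ± 0.27, adjusted p = 0.0881). Both were apart on every array. Of 22 other positional transcription factors, 1 was higher (Msx2) and 5 were lower (27.3%, near the 22% of all genes). Tbx4, a hindlimb factor, was at 173 and 215 against 285, 245, 505 and 443 (−0.81 ± 0.19, adjusted p = 0.106). Pitx1, another hindlimb factor, was at 167 and 167 in the Crebbp lines and at 154 and 184 in flox2_1 and flox2_2, but at 436 and 705 in triCH1flox2_1 and triCH1flox2_2.

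Genes of energy metabolism and translation had small differences, mostly positive, and few passed an unadjusted p of 0.05. The shares were 10.5% of oxidative phosphorylation and 7.69% of ribosomal protein genes, below the 22% of all genes. Among all 10059 genes, 4915 had a positive difference. Of 19 measured oxidative phosphorylation genes, 17 had a positive difference and 2 passed an unadjusted p of 0.05 (Uqcrfs1 at 0.29 ± 0.10 and Uqcrc1 at 0.31 ± 0.13), with a median of 0.15 (0.06 with quantile normalization and 0.22 with median centring). Of 13 ribosomal protein genes 12 were positive, with a median of 0.13 and none higher at that threshold. The exception, Rps6, was lower at that threshold (−0.67 ± 0.13), at 879.5 and 1621 against 1543, 1627, 2141 and 2489.

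Genes beside the targeted loci carried no call. Of the 17 measured genes within 10 places of Crebbp in gene order, none was called and 1 was lower at an unadjusted p under 0.05 (Cluap1, −0.35 ± 0.14), with a median of −0.06. Of the 20 around Ep300 none was called, Mrtfa (0.30 ± 0.12) and Pmm1 (0.45 ± 0.15) were higher and Tnrc6b (−0.73 ± 0.19) was lower at that threshold, with a median of 0.05. Over all genes 22% passed that threshold, so neither locus had more such genes than the rest.

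No difference in the hypoxia response between the floxed genes passed the test. The response is hypoxia minus normoxia in each line, and its difference between the groups was called in 0 of 18903 probe sets (0%, limma), with 306 (1.62%) at an unadjusted p under 0.05, larger in the Crebbp lines in 0.883% and smaller in 0.735%. Responses of the 2 and the 4 lines did not overlap in 1859 probe sets (9.83%). On simulated data this fit called none of the differences of 1 log2 unit and 41% of those of 2, so smaller differences were not detectable with these lines. Leaving out flox2_2 gave 14 calls and leaving out flox1 gave 1. Of 44 measured HIF targets, 20 had a larger and 24 a smaller response in the Crebbp lines, with a median difference of −0.02. Bnip3, a mitophagy receptor, had log2 responses of 4.38 and 4.24 in the Crebbp lines and of 4.18, 4.80, 4.08 and 4.84 in the Ep300 lines (difference −0.17 ± 0.26). Vegfa, the angiogenic growth factor, had responses of 0.75 and 0.56 against 0.87, 1.21, 1.07 and 0.82 (−0.34 ± 0.24), and Slc2a1, the glucose transporter, of 1.63 and 1.42 against 1.75, 1.62, 1.42 and 1.19 (0.03 ± 0.16).

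**Figure D5:**
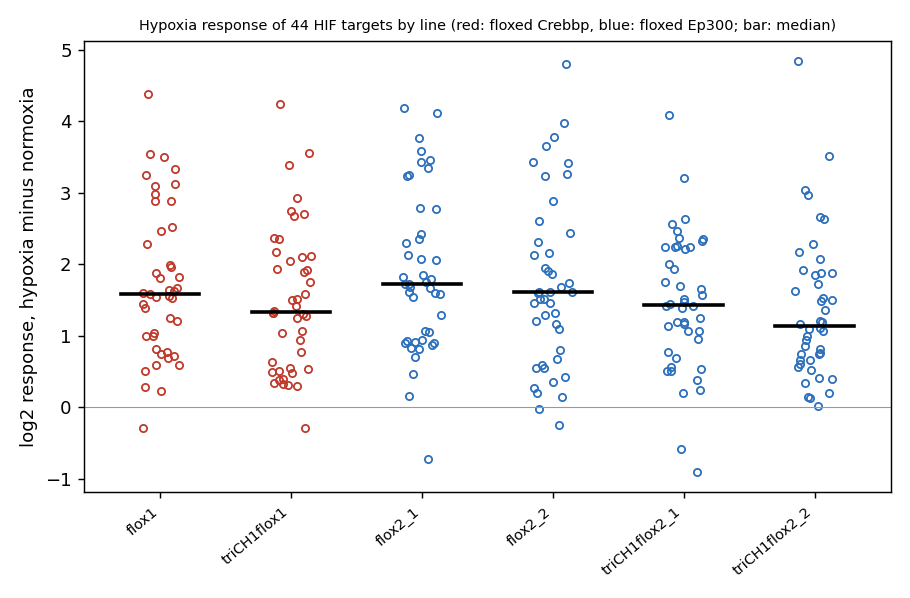
Each point is the log2 response (hypoxia minus normoxia) of 1 of 44 HIF targets in a line, with floxed Crebbp lines in red, floxed Ep300 lines in blue and the line's median as a bar. The lines overlap throughout, and the median difference between the groups is −0.02.

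Averaged over both oxygen levels and adjusted for triCH1 status, HIF targets lay slightly higher in the Crebbp lines. Of the 44, 11 were higher and 1 lower (Car9) at an unadjusted p under 0.05, with a median of 0.17. These are 25% and 2.27% of the list, against 9.31% and 12.7% of all genes. Both Crebbp lines stood above all Ep300 lines in 6 of the 44, against 1407 of all 10059 genes. The list's median log2 values overlapped, at 11.35 in flox1 and 11.13 in triCH1flox1. They were 11.24 and 11.03 in flox2_1 and flox2_2, and 10.58 and 10.56 in triCH1flox2_1 and triCH1flox2_2. The median was 0.16 from the normoxia arrays alone and 0.21 from the hypoxia arrays alone. It turned negative where a line was left with 1 oxygen level, at −0.17 without the hypoxia array of flox1, −0.07 without that of triCH1flox1 and −0.02 without the normoxia array of flox2_1. Slc2a1 was at 19700 and 16160 against 16240, 16940, 10520 and 12390 (0.37 ± 0.11), and Ankrd37 at 3867 and 1010 against 3061, 3425, 525 and 660.0 (0.65 ± 0.17). In Ankrd37 the control lines were all above the triCH1 lines, and the Crebbp line was the highest of each stratum. Car9 was at 51.4 and 67.5 against 105, 149, 253 and 102 (−0.91 ± 0.35).

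The genes with the smallest p for a difference in response did not pass (adjusted p of 1 for each, limma). Tsc22d1, a leucine zipper factor of TGF-beta signalling, had responses of −0.54 and −0.76 in the Crebbp lines and of 0.75, 0.48, 1.09 and 0.72 in the Ep300 lines (−1.41 ± 0.27). Its normoxia signals were 1946 and 998 against 599, 724, 578 and 603, and all 5 of its probe sets had a response difference of the same sign. H2-Ab1, an MHC class II chain, was at 74.0 and 173 in normoxia in the Crebbp lines against 8.0, 16, 6.3 and 9.0, and at 279 and 431 in hypoxia against 269, 304, 331 and 337. Its signals were thus above those of the Ep300 lines in normoxia and near them in hypoxia (response difference −2.03 ± 0.47). Met, the receptor of hepatocyte growth factor, had responses of 1.01 and 1.90 in the Crebbp lines and of −0.37 to −0.07 in the Ep300 lines (1.70 ± 0.41), but its other probe set had the opposite sign. Hnrnph1, Capg, Pla2g12a, Ubn2, Tcf3, Zfhx3 and Odf2 had larger responses in the Crebbp lines. Gja1, Odf2l, Ywhab, Gtpbp2, D2hgdh and Bmf had smaller ones. Both other probe sets of Gtpbp2 and 3 of the 5 others of Gja1 had the opposite sign.

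Whether the difference between the floxed genes itself differs with the CH1 deletion was tested as an interaction, with 2 residual degrees of freedom. None of 18903 probe sets was called (0%, limma), 859 (4.54%) had an unadjusted p under 0.05, and the smallest adjusted p was 0.774. The simulated interaction was called in 0% of cases at 1 and at 2 log2 units, and larger ones were not simulated. The simulation used the spread left by the fit without an interaction, which includes any real interaction. The lack of calls therefore does not show that such differences are absent. Leaving out flox2_2 gave 4 calls and leaving out triCH1flox2_1 gave 3. In several of the genes with the smallest p, 1 of the 2 Crebbp lines, which differ in the sex of their cells, stood apart. Pdpn, podoplanin of stromal and lymphatic cells, was at 162 in flox1 and between 1733 and 3010 in the other lines (interaction 2.97 ± 0.33). Clta, a clathrin light chain, was at 1763 in flox1 against 5768 to 8098 elsewhere, although another probe set had the opposite sign. Prdx2, a peroxidase, was at 198 in triCH1flox1 against 986 to 2724 elsewhere (−3.29 ± 0.50), and its other probe set had the opposite sign. Abhd1 and Cd99l2 were lowest in triCH1flox1 too, at 105 and 162. Itgbl1 and Cd59a, the latter an inhibitor of complement, were instead low in both triCH1flox2 lines (186 and 158, and 261 and 285) and at 947 to 1724 and 977 to 1615 elsewhere. Pam, which amidates peptides, was at 369.6 and 214 in flox2_1 and flox2_2 and at 753 to 1777 in the other lines.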

How the data were processed

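RNA of 12 cultures (6 lines, each at 2 oxygen levels) was measured on 1-colour Affymetrix Mouse430_2 arrays. The values are the intensity signals that the authors deposited, computed by the Statistical algorithm of Affymetrix with 500 as the scaling target, per the labels' protocols. From these, log2(signal + 20) was computed here. Of 45101 probe sets, 64 controls were left out, and 18903 with a mean signal of at least 100 were tested. By the array's annotation, 34945 probe sets have 1 gene symbol, 932 several and 9160 none; only the first kind was named. Each line's 2 arrays were averaged, or subtracted for the response, and fitted with limma 3.58.1 in R 4.3.3 (lmFit and eBayes with a variance trend, two-sided) on the floxed gene and triCH1 status. This leaves 3 residual degrees of freedom, and 2 with their interaction. Calls have a Benjamini-Hochberg adjusted p under 0.05. Fewer than 5 genes passed in each direction, so the rule names the 8 with the smallest p per direction and result, the targeted genes with 10 neighbours on each side, and up to 6 members of a list by smallest p. Other list members named, such as Mdm2, Fos, Pitx1, Aurka, Cenpa, Kat2a, Kat2b, Acta2, Vegfa, Bnip3 and Krt19, were picked with their values in view. A gene named for a result is read by the probe set with its smallest p, and a list member or neighbour by the brightest. On simulated data 34% of differences of 1 log2 unit and 83% of those of 2 were called between the floxed genes, with 5 false calls. For arrays the number of lines limits the precision. The members and gene lists were chosen with earlier results of these data known. Alternatives covered the pseudocount, filter, normalization, variance model, unit of replication and omission of each line and array.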

Additional observations from a re-analysis of the deposited data

How the results depend on the processing

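The number of calls depended strongly on the processing. The 50 differences of single named probe sets kept their sign in all 1375 refits, of which 1240 kept their side of the threshold, 69 lost it and 66 gained it. Most of the 50 were chosen by their small p in these same arrays, so the kept signs follow largely from that choice. Of 204 refits of 6 list medians, 14 moved and 3, all of HIF targets, turned sign. With 1 value per gene the CITED list turned from 0.16 to −0.01 and the unfolded protein list from 0.01 to −0.0037. Against 2 probe sets higher and 6 lower in the Crebbp lines, there were 24 and 45 with no filter, 0 and 2 with quantile normalization, 16 and 37 with median centring, 0 and 2 with no variance trend, 11 and 16 with robust fitting, and 1 and 3 with 1 value per gene. Treating arrays as the unit gave 389 and 489 with the line as a random block and 652 and 858 with arrays taken as independent. Normoxia arrays alone gave 0 and 7, hypoxia arrays alone 0 and 0, no triCH1 covariate 0 and 0, control lines alone 0 and 4, and triCH1 lines alone 29 and 45. Leaving out a line or array gave 0 to 8 higher and 0 to 17 lower, 0 to 14 for the response and 0 to 4 for the interaction. Median centring moved the median difference of all probe sets from −0.03 to 0.03. The brightest Crebbp probe set passed with the line as a random block (adjusted p = 0.0357, limma) and with independent arrays (adjusted p = 0.0245), at −0.82 in both. It was at −1.04 from normoxia arrays alone, −0.60 from hypoxia arrays alone, −0.77 with quantile normalization and −0.75 with median centring. Ep300 was at 0.40 from normoxia arrays alone and 1.11 from hypoxia arrays alone. Omissions gave −0.97 to −0.66 for Crebbp, and 0.56 to 0.96 for Ep300. The replication list had a median of −0.20 in the control lines alone and −0.74 in the triCH1 lines alone, which is also its range over omissions. Over omissions the mitotic median lay between −0.45 and −0.22, oxidative phosphorylation between 0.10 and 0.21, p53 targets between 0.05 and 0.30, and contractile genes between 0.15 and 0.25 (0.0773 with quantile normalization). HIF targets lay between −0.17 and 0.58, where an omitted array leaves a line with 1 oxygen level. With a replicate block by line number there were 11 calls, 8 of them shared, and with lines named alike as a random block 7. The labels do not say that the numbers mark shared animals, and the difference between lines numbered 1 and 2 had an r of 0.18 between control and triCH1 lines. The number of lines limits the precision.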

Other observations

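No member of the imprinted, interferon or cholesterol lists passed the test between the floxed genes. Their shares at an unadjusted p under 0.05 (limma) were 21.4%, 17.6% and 14.3%, which do not exceed the 22% of all genes. Of 14 measured imprinted growth regulators, 2 were higher (Ndn and Gnas) and 1 was lower (Mest) in the Crebbp lines at an unadjusted p under 0.05 (limma). Mest was at 117 and 108 in flox1 and triCH1flox1 against 257, 191, 892 and 466 in flox2_1, flox2_2, triCH1flox2_1 and triCH1flox2_2, apart on every array (−1.59 ± 0.39). Of 17 measured interferon and MHC class I genes, 3 were higher (Ifi35, H2-D1 and B2m) and none lower, with a list median of −0.08. Ifi35 was at 2617 and 3225 against 2081, 2370, 2149 and 1917 (0.46 ± 0.13). Of 14 measured cholesterol synthesis genes, 2 were lower (Idi1 and Hmgcs1) and none higher, while 10 had a positive difference and the median was 0.03. Idi1, an isomerase of the isoprenoid pathway, was at 2156 and 2070 against 2849, 3130, 3175 and 3579 (−0.61 ± 0.12), and Hmgcs1 differed by −0.23 ± 0.09.

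Of 7 measured genes known to vary between inbred mouse strains, 3 were higher in the Crebbp lines at an unadjusted p under 0.05 (Alad, H2-D1 and Glo1) and none lower. That is 42.9% of a short list, against 22% of all genes. Wdfy1 was at 223 in flox2_2 and between 921 and 2140 in the other lines, and Alad at 417 in flox2_1 and between 598 and 1160 in the others. Whether strain background has a part in the differences between lines was not tested.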
